A study of Mus musculus with 4 samples.

Results

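Some stretches of H3K27ac in mouse Th17 cells run past 1 gene and take in a row of neighbours. They were found by joining the deposited peaks that lay at most 12.5 kb apart and keeping each joined cluster whose span overlapped at least 4 protein-coding genes of the RefSeq annotation on chromosomes 1 to 19 and X. Of 18748 stitched clusters 258 (1.38%) met this rule, 13840 overlapped 1 to 3 coding genes and 4650 overlapped none. The 258 multigene clusters held 2375 of the 56284 peaks placed on these chromosomes and 3.63 Mb of peak length, 5.62% of the total. They overlapped 1281 different coding genes, 5.92% of the 21631 annotated, in 1319 pairs of a gene and a cluster. The clusters were thus chosen by measured peak positions together with gene positions. Everything below that rests on those positions is a description and carries no test.

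The series holds H3K27ac ChIP-seq of 1 cell state. Naive CD4+ T cells from C57BL/6 mice were cultured for 72 h on plate-coated antibody with 0.25 µg/mL anti-CD3ε and 1 µg/mL anti-CD28, which stimulate the T cell receptor and its costimulator, and with 0.1 ng/mL TGF-β and 20 ng/mL IL-6, the cytokines that direct naive cells to the Th17 fate. The labels give 2 immunoprecipitated libraries and 2 libraries of input DNA, all from this culture, and the growth protocol allows TGF-β above the dose in the treatment label. There is no untreated or other helper T cell group, and a culture of this kind can hold cells that did not become Th17 cells. The deposited peaks form a single list with a position and a name for each peak. No peak has a value per library, so the quantities below come without a replicate error, and read depth is unknown.

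H3K27ac is acetylation of lysine 27 on histone H3, placed by the coactivators p300 and CBP and found at active promoters and enhancers. Long runs of it over a single cell-identity gene are often called super-enhancers, and they are usually found by the same stitching of neighbouring peaks. Mammalian genes are unevenly spread, and in gene-dense stretches many pairs of genes start back to back from a shared promoter, so a run of joined peaks can also be a row of separate promoters.

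The sequences that show such shared promoters most directly are the intervals between the starts of divergent neighbours, genes transcribed away from each other. In the multigene clusters 29 such intervals of 20 to 250 bp were taken, between 2 genes that do not overlap and share 1 peak. The listed start of both genes also had to be the outermost annotated end, and a chromosome was left out. The 29 are therefore a subset of the close divergent pairs with a shared peak. The histone pair H2ac22 and H2bc22, with a gap of 234 bp and starts 240 bp apart, was not among them. The 6 below were picked after their values were seen to show the histone, antigen presentation, ribosome and proteasome genes that recur in the results. Each is the whole interval between both annotated starts, read on the plus strand 5′ to 3′ from the RefSeq promoter table of GRCm38.p6. The gene named first lies to the left and is transcribed leftward. Capitals mark the motif TATAAA, the motif GGGCGG and the motif CCAAT on either strand. For all coding genes the share of promoters with each motif is given further on.
H2ac8 to H2bc8, chr13:23571221-23571399: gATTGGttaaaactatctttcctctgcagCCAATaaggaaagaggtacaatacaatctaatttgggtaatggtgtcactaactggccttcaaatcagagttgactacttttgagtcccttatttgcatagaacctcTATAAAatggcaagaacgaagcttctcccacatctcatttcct
H2bc7 to H2ac7, chr13:23574208-23574380: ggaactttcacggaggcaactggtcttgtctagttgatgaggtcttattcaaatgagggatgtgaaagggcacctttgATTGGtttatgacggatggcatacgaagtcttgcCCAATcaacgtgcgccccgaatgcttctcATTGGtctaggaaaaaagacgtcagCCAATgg
Psmb9 to Tap1, chr17:34187331-34187555: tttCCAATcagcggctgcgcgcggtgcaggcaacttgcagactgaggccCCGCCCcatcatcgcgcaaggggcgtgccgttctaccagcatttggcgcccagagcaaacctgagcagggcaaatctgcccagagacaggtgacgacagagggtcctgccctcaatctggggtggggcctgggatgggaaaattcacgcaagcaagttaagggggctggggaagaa
Mrpl49 to Fau, chr19:6057756-6057946: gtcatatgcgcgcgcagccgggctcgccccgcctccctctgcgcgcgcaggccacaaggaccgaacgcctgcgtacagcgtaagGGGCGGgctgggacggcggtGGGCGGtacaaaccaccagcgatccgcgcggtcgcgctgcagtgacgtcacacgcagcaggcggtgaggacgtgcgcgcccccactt
Rps27 to Rab13, chr3:90213649-90213714: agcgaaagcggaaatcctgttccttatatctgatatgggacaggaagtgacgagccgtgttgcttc
Ftsj3 to Psmc5, chr11:106256085-106256184: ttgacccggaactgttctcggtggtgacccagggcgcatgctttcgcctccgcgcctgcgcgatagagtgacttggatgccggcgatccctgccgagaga

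The 2 histone intervals, between an H2A and an H2B gene each, held CCAAT 2 and 4 times, and the one between H2ac8 and H2bc8 held TATAAA once. The letters CCAAT were in all 5 histone intervals among the 29 taken and in 7 of the other 24. GGGCGG was in none of these histone intervals and in 10 of the others. The peaks over the histone intervals were short, 432 to 592 bp wide, while those over the other 24 were 1163 to 8976 bp wide with a median of 2386 bp. Short width does not mean isolation here. The peak over H2ac8 to H2bc8 ran from 54.371 to 54.877 kb from the left edge of its cluster. Its neighbours ended at 54.14 kb and began at 55.088 kb. How reads matching several histone copies were treated is not known. The Psmb9 to Tap1 interval, 225 bp, lay in a peak of 2747 bp. Psmb9 encodes an immunoproteasome subunit and Tap1 a subunit of the peptide transporter of MHC class I antigen presentation. The Mrpl49 to Fau interval had 29 CpG dinucleotides in 191 bp and 2 copies of GGGCGG, and its peak was 2687 bp wide. Mrpl49 encodes a mitochondrial ribosomal protein and Fau a precursor of the cytosolic ribosomal protein S30. The intervals of Rps27 and Rab13 and of Ftsj3 and Psmc5 held none of the 3 motifs. A match describes these letters only.

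Over a window of 250 bp before to 50 bp after each listed start, the promoters of cluster genes were rich in CpG. The median was 18 CpG in the 1289 windows of 1032 multigene cluster genes, 20 for genes of clusters with 1 to 3 genes, and 13 over all 21045 coding windows. TATAAA was in 8.38% of the multigene cluster windows, against 12.7% of all, and GGGCGG in 59.5% against 46.7%. Both shares lay close to those of genes in the smaller clusters, 7.31% and 60.4%. CCAAT, added after the values were seen, was in 39.0% of these windows and 38.5% of all. The histone genes stood apart: 27 of 48 windows (56.2%) held TATAAA, 43 (89.6%) held CCAAT, and their median CpG count was 10.5.

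Most clusters were a series of separate peaks with gaps between them. Their median span was 33043.5 bp, with quartiles of 22970 and 46876 bp, and the longest ran 222343 bp. The median cluster held 7 peaks and 9816.5 bp under peaks, so that 30.7% of its span was covered. The largest gap inside a cluster had a median of 10073 bp, near the stitching distance. Gene number was low in most: 149 clusters held exactly 4 coding genes, 14 held more than 8, and the highest number was 24. When the stitching distance was reduced to 5000 bp, 63 of the 258 (24.4%) still held a cluster with at least 4 coding genes, and the median cluster fell into 3 pieces.

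Peaks covered gene ends more densely than the rest of the spans. Gene ends were taken as all bases within 1000 bp of an annotated coding gene end, whether start or finish. In the multigene clusters 45.9% of covered bases lay there, 38.4% lay elsewhere in a coding gene, 3.45% in another annotated gene and 12.3% between genes. Gene ends made up 30.5% of the spans themselves, and 53.5% of that gene-end sequence was under a peak, against 27.9% of gene bodies and 24.8% of the sequence between genes. Cluster by cluster, the median share of covered length at gene ends was 58.5%, with quartiles of 43.0% and 77.2%, and the median share of span there was 34.0%. The covered share exceeded the span share in 245 of 258 clusters. It was over 50% in 166 clusters and under 25% in 14. The annotated ends are the outermost ones, so a peak at an internal start counts as gene body.

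Clusters with fewer genes had less of their covered length at gene ends at the same span. Each of the 258 was set beside the cluster with 1 to 3 coding genes nearest to it in span, within 10%. The like-span clusters had a median of 10746 bp under peaks, close to the multigene median, and 119 of 258 multigene clusters had more covered length than their partner. Their median share of covered length at gene ends was 13.4%, and the multigene cluster had the higher share in 248 of 258 pairs. Gene ends made up 6.84% of the span of the median like-span cluster, against 34.0% above, so they were also scarcer in the sequence itself. The rule of at least 4 genes brings more gene ends into a span. Pooled over bases, gene ends took 11.5% of covered length and 7.16% of span in the like-span clusters, against 45.9% and 30.5%. Of the gene-end sequence, 64.6% was under a peak in the like-span clusters and 53.5% in the multigene clusters, so the multigene clusters were not more densely covered there. By gene number, the 11486 clusters with 1 gene had a median gene-end share of 10.5%, those with 2 to 7 genes had medians between 56.1% and 63.5%, and those with 8 or more 67.3%. Pooled over bases, the share was 22.5% with 1 gene, 36.0% with 2, 42.8% with 4, 51.9% with 6 and 50.4% with 8 or more.

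**Figure D1:**
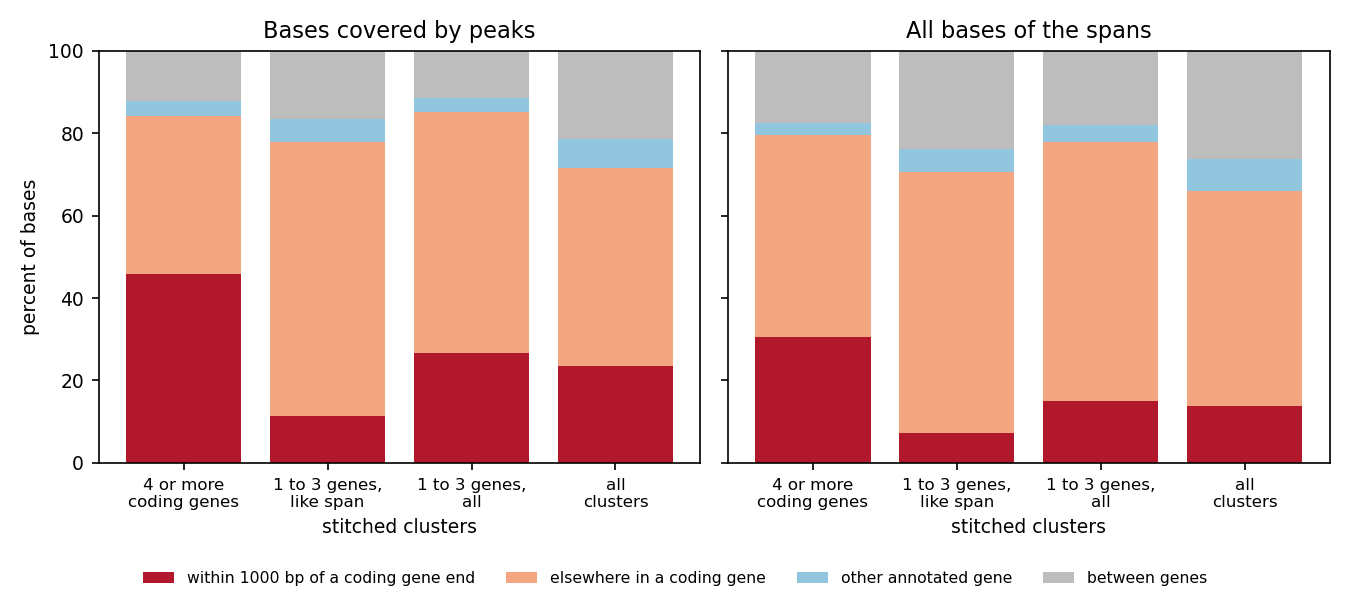
Percent of bases (vertical axis) in each position class, for bases covered by peaks (left) and for all bases of the cluster spans (right). Bars are pooled over the clusters of each group, without error bars since there is 1 peak list, and the gene-end class takes 45.9% of covered bases in the multigene clusters and 11.5% in the like-span clusters.

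Large covered length went with a small gene-end share. Across the 258 clusters covered length and gene-end share had a Spearman rho of -0.73 and a Pearson r of -0.61. The points share 1 peak list, and covered length also enters the share, so these values only describe the cloud. Domains, the 826 of 18748 clusters (4.41%) with more than 13241 bp under peaks (where the ranked curve of covered length reaches a slope of 1 after scaling), included 87 of the multigene clusters, which is 33.7% of the multigene clusters and 10.5% of the domains. At like span, the clusters with 1 to 3 genes included 108 domains of 258 (41.9%). The 87 multigene domains had a median gene-end share of 40.3%, with quartiles of 31.8% and 51.6%, and a median widest peak of 6112 bp. The other 171 had a median of 71.7%, with quartiles of 54.6% and 82.6%, and a median widest peak of 2459 bp. Gene number showed no such trend, with a rho of 0.01 against the gene-end share.

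Clusters were also split by the gene lists they held, without regard to their other genes. The 11 clusters that held a gene of the immune lists (Th17, T cell identity, activation, MHC, other helper T cell programs) and none of the housekeeping lists had a median of 26601 bp under peaks and a gene-end share of 32.3%, and 10 of them were domains. The 61 that held at least 1 gene of the housekeeping lists (ribosome, proteasome, respiratory chain, splicing, transcription machinery) and none of the immune lists had medians of 10423 bp and 59.9%, and 17 were domains. The 3 that held both kinds, Kifc1 to Vps52, Psmb9 to Tap2 and Foxo4 to Med12, had gene-end shares of 53.4%, 54.8% and 65.3%, above the immune median, and all 3 were domains. The 8 with histone genes had 9228 bp and 72.4%, and the 175 with none of these lists 9215 bp and 58.5%. Some lists were matched by symbol alone. Ring1 to Rxrb, with 8276 bp and 73.4% and no domain, is among the 11 through H2-Ke6, which is no MHC molecule. Atp6v0a1 to Psmc3ip is among the 61 through Psmc3ip, which is no proteasome subunit. The histone clusters had 2.36% of their covered length in gene bodies at the median, the immune clusters 40.2%. Every base within 1000 bp of a gene end was classed as gene end first. Genes shorter than 1000 bp, as most of these histone genes are, therefore have no body class. The low body share of the histone clusters follows from this, and their gene-end share also depends on gene length.

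**Figure D2:**
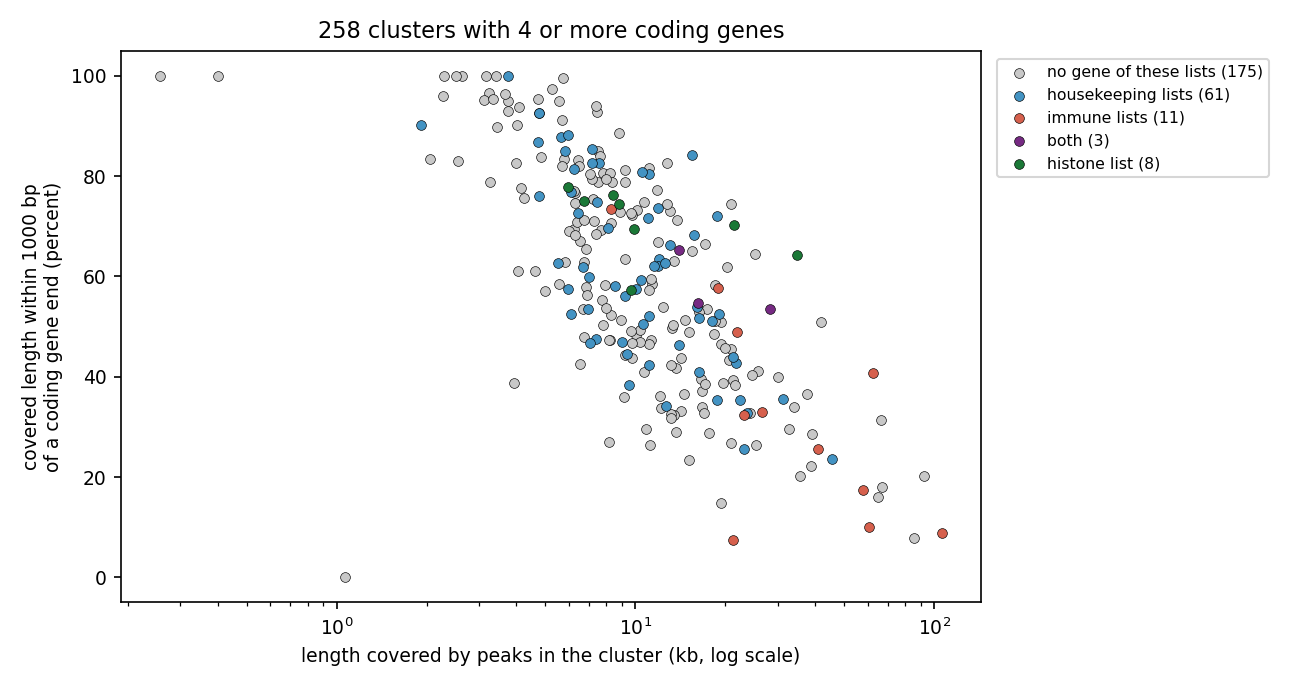
Each point is 1 of the 258 multigene clusters, placed by its length under peaks (kb, log scale) and the percent of that length within 1000 bp of a coding gene end, with colour for the gene lists it holds. Points fall from upper left to lower right, and 10 of the 11 immune-list clusters lie above 13241 bp of covered length.

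The gene-richest clusters followed these shapes. In the histone locus on chromosome 13, a span of 81444 bp from H4c8 to H2bc6 (chr13:23516645-23598088) held 15 coding genes, all of them core or linker histones made in S phase. It had 32 peaks over 34871 bp, and 64.2% of that length lay at gene ends, which were 37.2% of the span. Each of the 15 genes had a gene-end peak. H1f3, a linker histone of 776 bp, was covered over 86.1% of its length. A second stretch of the locus, H1f2 to H1f1 (chr13:23734267-23764669), held 9 histone genes in 30403 bp with 70.3% of the span under peaks. Across all clusters 51 of the 92 listed histone genes were in 8 multigene clusters, each of the 51 with a gene-end peak, while 64 of the 92 had one anywhere. Histone genes are near copies of each other, and the sources used here do not say how reads matching several copies were treated.

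The cluster from Nrarp to Anapc2 (chr2:25167878-25273431) also held 15 coding genes, in separate peaks far apart. Its 17 peaks covered 20911 bp, 19.8% of a span of 105554 bp, and 74.4% of that length lay at gene ends. Nrarp encodes a Notch-regulated ankyrin repeat protein, Nelfb a subunit of the negative elongation factor of RNA polymerase II, Tubb4b a beta-tubulin and Anapc2 a subunit of the anaphase-promoting complex. Nelfb was covered over 8.50% of its 11778 bp, Nrarp over 20.8% and Tubb4b over 52.2%. Peaks were found at an end of 13 of the 15 genes and at the start of 10 of the 13 with a listed start, and Fam166a and Rnf224 had none.

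The cluster from AI467606 to Itgal (chr7:127076642-127298984) was the longest at 222343 bp. It held 12 coding genes, 57 peaks and 92355 bp under peaks, of which 20.2% lay at gene ends and 36.3% between genes. Spn encodes CD43, the main sialoglycoprotein of the T cell surface, and 65.1% of the gene was covered. Itgal encodes the alpha chain of the integrin LFA-1. It crossed the right edge, and the 2846 bp inside the span, all under a peak, were 7.30% of the gene. Mylpf, a skeletal muscle myosin light chain and 1 of 26 listed muscle genes, lay among these and was covered over 46.1%. Qprt, which encodes an enzyme of NAD synthesis, had no gene-end peak although 47.4% of its body was covered.

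The cluster from Gstp3 to Carns1 (chr19:4051514-4172067) held 12 genes and 41894 bp under peaks, with 51.0% at gene ends. Ptprcap, which encodes a protein associated with the phosphatase CD45, was covered over its whole 2065 bp. Its neighbour Coro1b, which encodes the actin regulator coronin 1B, was covered over 18.2%. The cluster from Cacna2d2 to Ifrd2 (chr9:107519340-107589026), also with 12 genes, had no covered base between genes and 51.0% of 19344 bp at gene ends. It is a tight set that includes the hyaluronidase genes Hyal1, Hyal2 and Hyal3 and Rassf1. The cluster from Kifc1 to Vps52 (chr17:33890004-33982239) held 11 genes with 53.4% of 28302 bp at gene ends, among them Tapbp, which encodes tapasin of the MHC class I loading complex, and Rps18, a ribosomal protein gene.

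The cluster from Prrc2a to H2-D1 in the MHC class III region (chr17:35160957-35264798) joined cytokine genes to other promoters. Its 26 peaks covered 62270 bp, 60.0% of the span, with 40.7% at gene ends. A peak of 14732 bp covered Ltb, Tnf and Lta entirely, the 3 genes of the lymphotoxin and tumor necrosis factor cytokines. H2-D1, a classical MHC class I gene, lay at the right edge, and all 10 genes of the cluster had a gene-end peak.

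**Figure D3:**
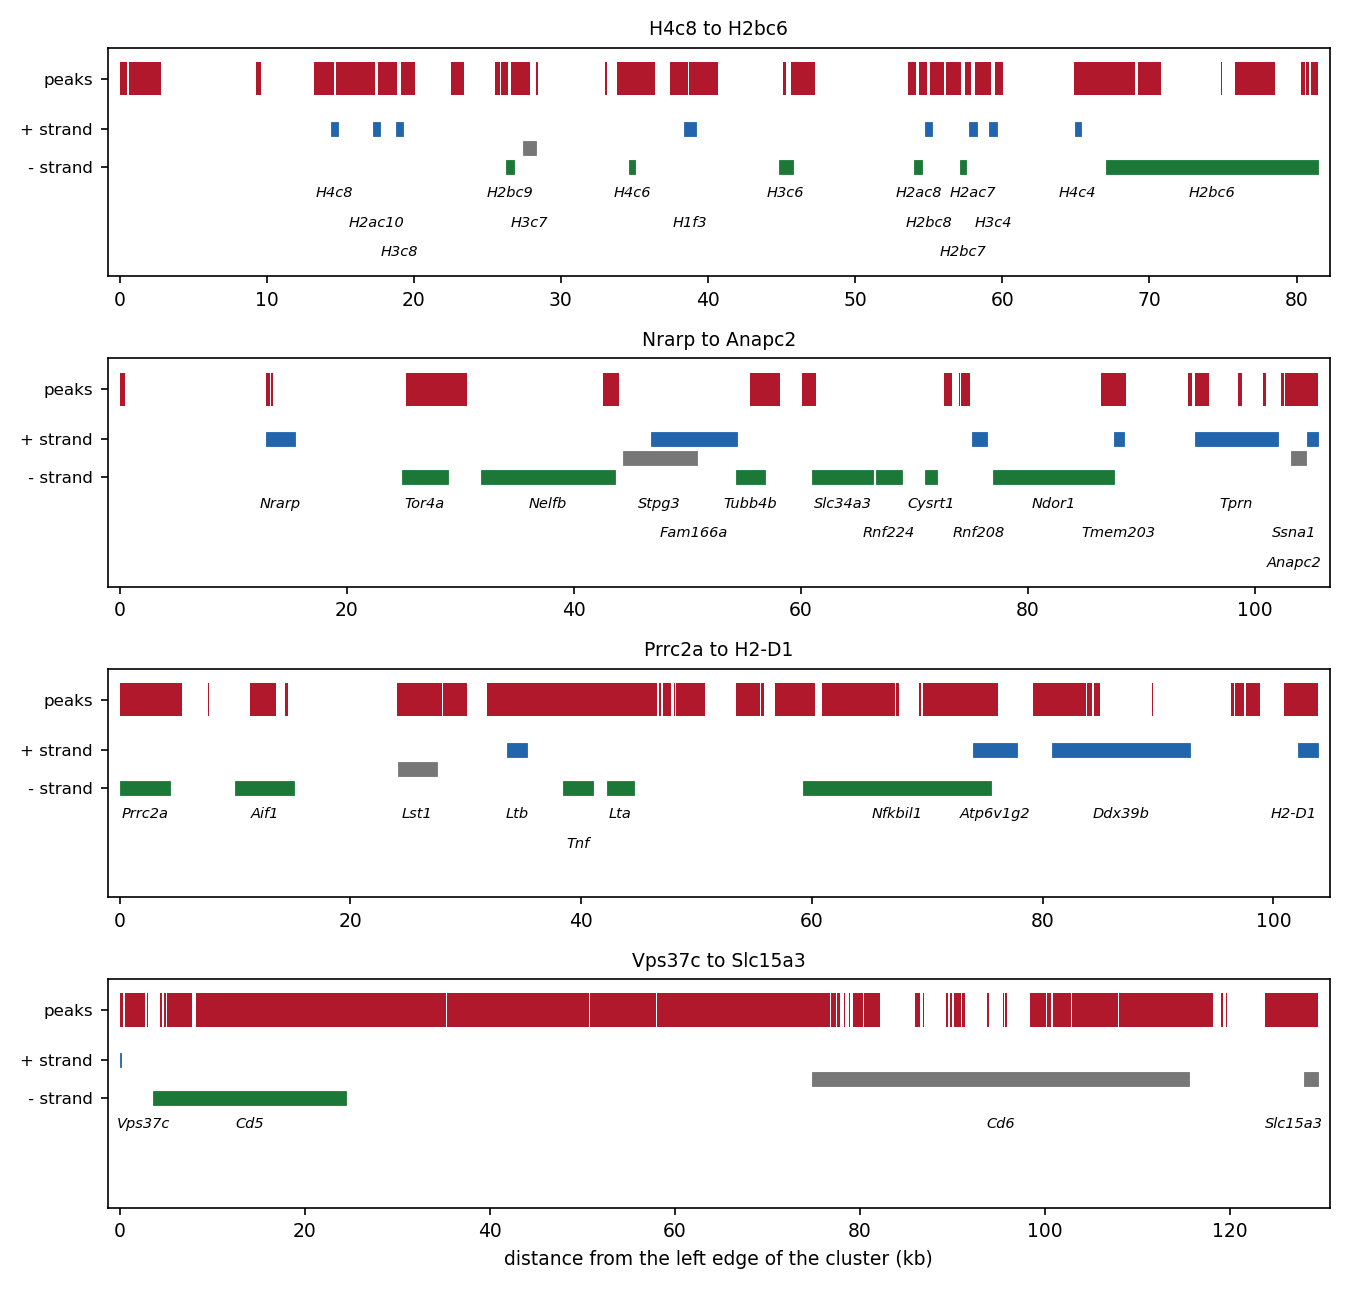
Maps of 4 multigene clusters, with distance from the left edge in kb on the horizontal axis. Red blocks are peaks, and blue and green blocks are coding genes on the plus and minus strand, cut off at the cluster edge, with grey where the reference lists no start. The upper pair shows separate peaks at gene ends (64.2% and 74.4% of covered length), the lower pair wide peaks that run over and past genes (40.7% and 8.90%).

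The 5 clusters with the most covered length, the Itgal cluster among them, held lymphocyte receptors, adhesion molecules and gene families. The longest covered length, 105840 bp, was in the cluster from Vps37c to Slc15a3 (chr19:10714516-10844016), where 33 peaks covered 81.7% of the span. Its middle genes are Cd5 and Cd6, which encode related receptors that tune T cell receptor signals. Cd5 was covered over 91.8% of its 20920 bp, under a peak of 26977 bp that was the widest in any multigene cluster, and Cd6 over 62.3% of 40724 bp. Only 8.90% of covered length lay at coding gene ends, 39.5% lay in coding gene bodies and 42.3% in other annotated genes.

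Other clusters of this kind were led by receptors and small gene families. The cluster from Ubac2 to Timm8a2 (chr14:121894545-122065267) had 85440 bp under peaks and 7.77% at gene ends. It holds Gpr183, a receptor for oxysterols that guides lymphocyte positioning, which was covered over its whole 12863 bp, and Gpr18, covered over 53.3%. The cluster from Ms4a4b to Ms4a4d (chr19:11434600-11560333), of the family of membrane-spanning 4A proteins, had 66923 bp under peaks and 17.9% at gene ends. The cluster from Gimap8 to Gimap5 (chr6:48645169-48750407) held 7 genes of the GTPases of immunity-associated proteins, which act in lymphocyte survival. It had 66277 bp under peaks with 31.4% at gene ends, and each of the 7 genes had a gene-end peak, with Gimap9 wholly covered, Gimap1 covered over 97.0% and Gimap8 over 33.8%.

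Of the 5 clusters just described, 2 had exactly 4 genes, the threshold of the rule, and the others had 5, 7 and 12. Clusters just inside and just outside the threshold are given here by covered length. The 3 with exactly 4 genes and the most covered length were the Cd5 and Cd6 cluster, the Gpr183 cluster and the cluster from Crtap to Ccr4, with 105840, 85440 and 60300 bp and 8.90%, 7.77% and 9.96% at gene ends. The 3 largest with 3 genes, just outside, were the cluster from Il21 to Bbs12 with 105584 bp and 5.53%, from Clec16a to Tnp2 around Socs1 with 95242 bp and 8.06%, and from Rbm17 to Il15ra around Il2ra with 66681 bp and 9.56%. These 6 are all domains by covered length.

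Listed T cell identity genes lay in 3 of the multigene clusters, and none of the 30 genes listed here as the Th17 program did. The list of T cell identity and receptor signalling genes had 6 of 25 members there (24%), against 5.92% of all coding genes, and all 25 had a gene-end peak somewhere. None of the 30 Th17 program genes was in a multigene cluster, although 26 of the 30 had a gene-end peak. For a list of 30 this is not far from the 5.92% of all coding genes. Il12rb1 and Ccr4, counted in another list below, did lie in multigene clusters. Il21 stood just outside as given above. As a check of the labelled cell type, gene-end peaks were counted at genes of other tissues. They were found at 3 of 25 liver genes, 3 of 26 muscle genes, 6 of 112 keratin genes, 4 of 23 B cell and myeloid markers and 9 of 23 neuron genes (39.1%), against 53.8% of all coding genes.

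The coreceptor gene Cd4 led a cluster with Lag3, Ptms and Mlf2 (chr6:124879630-124932472). Its 12 peaks covered 26601 bp, 50.3% of the span, with 33.0% at gene ends. Cd4 crossed the left edge, and 36.6% of the gene was covered. Lag3 encodes an inhibitory receptor that binds MHC class II, and 77.7% of it was covered.

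The genes of the CD3 chains, the signalling part of the T cell receptor, formed a cluster with Ube4a (chr9:44964558-45018897). Here 5 peaks covered 18886 bp of a span of 54340 bp, with 57.6% at gene ends. Cd3d was covered over its whole 5284 bp, Cd3g over 22.7% and Cd3e over 31.7%.

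The activation and cytokine signalling list had 4 of 31 genes in multigene clusters. Tnfrsf4 and Tnfrsf18, which encode the costimulatory receptors OX40 and GITR, shared the cluster from B3galt6 to Tnfrsf18 (chr4:155991212-156034193). Its 7 peaks covered 95.1% of the span, the highest share of any multigene cluster with more than 1 peak, and both receptor genes were wholly covered. Cish, which encodes a suppressor of cytokine signalling, lay wholly under a peak of 22618 bp in a cluster of 57808 covered bases with 17.5% at gene ends. Il2rg, which encodes the common gamma chain of the interleukin receptors, was covered over 94.5% in a cluster on chromosome X with 65.3% at gene ends. Junb, which encodes an AP-1 subunit and was not on the list, was wholly covered by a peak of 18722 bp that also reached gene ends of Prdx2 and Hook2.

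The list of Th1, Th2 and regulatory T cell genes had 4 of 17 members in multigene clusters. Il4 and Il13, cytokine genes of Th2 cells, lay with Kif3a and Rad50 in a cluster of 21147 covered bases (chr11:53587839-53663779). Of that length 7.36% lay at gene ends, less than the 15.8% of the span there, and 73.2% lay in gene bodies. Il4 was covered over 6.64% and Il13 over 32.8%, each with a peak within 1000 bp of its start. Ccr4, which encodes a chemokine receptor of Th2, Th17 and regulatory T cells, was covered over 33.3%. Il12rb1, the receptor chain shared by IL-12 and IL-23, was the fourth of these genes, in a cluster of 21822 covered bases with 48.8% at gene ends.

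**Figure D4:**
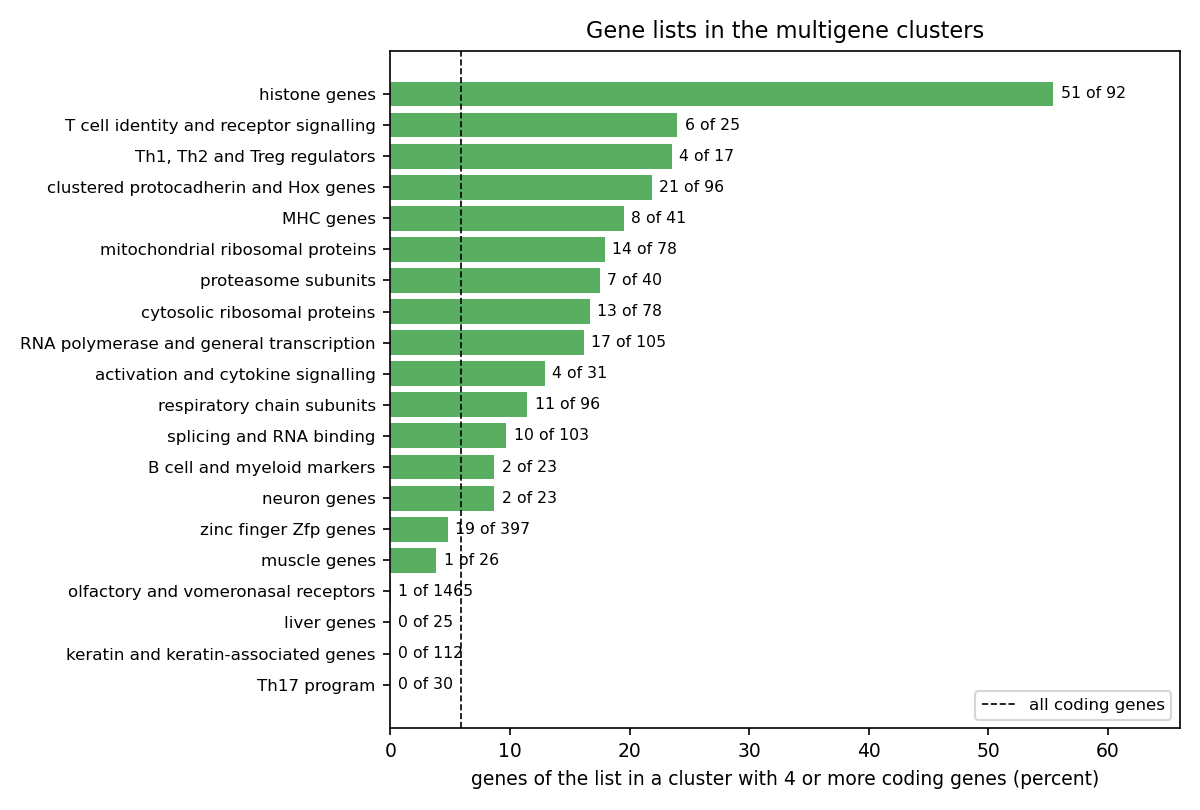
Percent of each gene list that lies in a multigene cluster (horizontal axis), with the number of genes beside each bar and a dashed line at 5.92%, the share of all coding genes. The histone genes have the longest bar with 51 of 92, and the Th17, keratin and liver lists have none.

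Housekeeping lists had 9.71% to 17.9% of their genes in multigene clusters, against 5.92% of all coding genes. That comparison includes 8627 coding genes in no stitched cluster, which could not be counted. In the housekeeping lists 89.6% to 97.4% of genes had a gene-end peak anywhere. How far this alone raises the list shares was not tested. There were 13 of 78 cytosolic ribosomal protein genes in multigene clusters, spread over 13 clusters, and 14 of 78 mitochondrial ones over 14. There were 7 of 40 genes with proteasome symbols, of which Psmc3ip encodes a recombination factor and no subunit. RNA polymerase and general transcription had 17 of 105, respiratory chain 11 of 96 and splicing 10 of 103. All of these genes had a gene-end peak except Mrpl4. Zinc finger Zfp genes had 19 of 397, and olfactory and vomeronasal receptors 1 of 1465. The MHC list had 8 of 41, including Tap1, Tap2 and Tapbp of peptide loading and 3 class I genes of the H2-T group, and also H2-Ke6, which is no MHC molecule. The H2-T and H2-D genes have near copies, so their peaks carry the same uncertainty as the histone genes.

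The clusters with the highest gene-end share were small. In 5 of the 8 with 100% the covered length ran from 2517 to 3749 bp in 2 or 3 peaks: Tbx10 to Ndufv1, Pcx to Gm960, Zswim1 to Ctsa, Acd to 4933405L10Rik and Cenpx to Dcxr. Ndufv1 encodes a core subunit of respiratory complex I, Pcx pyruvate carboxylase, Ctsa a lysosomal protease and Acd a telomere protein of shelterin. Between the peaks of 2 of these clusters lay Doc2g and Spata25, with no peak. The lowest share of span covered was 11.0%, from Ppara to Ttc38, where 4 peaks covered 3115 bp with 95.1% at gene ends. The next were Rmdn3 to Gm14137 with 12.1% and Lamtor2 to Arhgef2 with 13.8%.

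Some clusters reached 4 genes only through overlapping gene models. In 89 of the 258 the coding genes formed fewer than 4 separate loci, and in 10 they formed 1. The clustered protocadherin genes, neuronal adhesion genes whose models share their last exons, gave the most genes: a cluster of 24 genes with 5551 bp under 7 peaks, and another of 17 genes with a single peak of 257 bp. Of the 21 protocadherin genes involved 4 had a gene-end peak. In this set the Ugt1a genes, which encode glucuronosyltransferases of drug and bilirubin clearance and also share last exons, gave 4 clusters. Among these was the only one with no covered base at a gene end, with 1065 bp of peak. Evi2, Evi2a and Evi2b lie inside Nf1 and made a cluster of 9731 covered bases. The 3 clusters of a single peak each had 1 locus.

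Nearly every gene in the multigene clusters carried a peak at an end. Of the 1281 genes 1189 (92.8%) had a peak within 1000 bp of either end, against 53.8% of all coding genes and 87.3% of genes in clusters with 1 to 3 genes. The exact 95% interval, 91.3 to 94.2%, covers the number of genes only. It takes genes as independent, although neighbours can share a peak. A gene overlapped by a joined run of peaks has peaks nearby by construction. Genes wholly inside a span had one in 822 of 858 pairs (95.8%) and genes crossing its edge in 377 of 461 (81.8%). In 192 clusters (74.4%) every gene had one.

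The genes were short, with a median of 6928 bp against 17329 bp over all coding genes, and peaks reached both ends of 515 (40.2%), against 8.77% of all. Strand was known for the 1032 with a listed start. Of these 933 (90.4%) had a peak within 1000 bp of the start, against 55% of all such genes and 89.8% in the smaller clusters. Peaks at the finish were found for 466 (45.2%), against 11.0% of all and 14.4% in the smaller clusters. Where another coding gene had a listed start within 2000 bp of the finish, 201 of 255 finishes (78.8%) had a peak. Where none was listed, 265 of 777 (34.1%) had one, against 11.4% in the smaller clusters. Unlisted and noncoding starts were not counted. In a short gene the peak at its own start can also reach the finish, and genes of the smaller clusters were longer, with a median of 26965 bp. These contributions were not separated. Another start that near was listed for 24.7% of multigene cluster genes and 5.98% of the others.

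**Figure D5:**
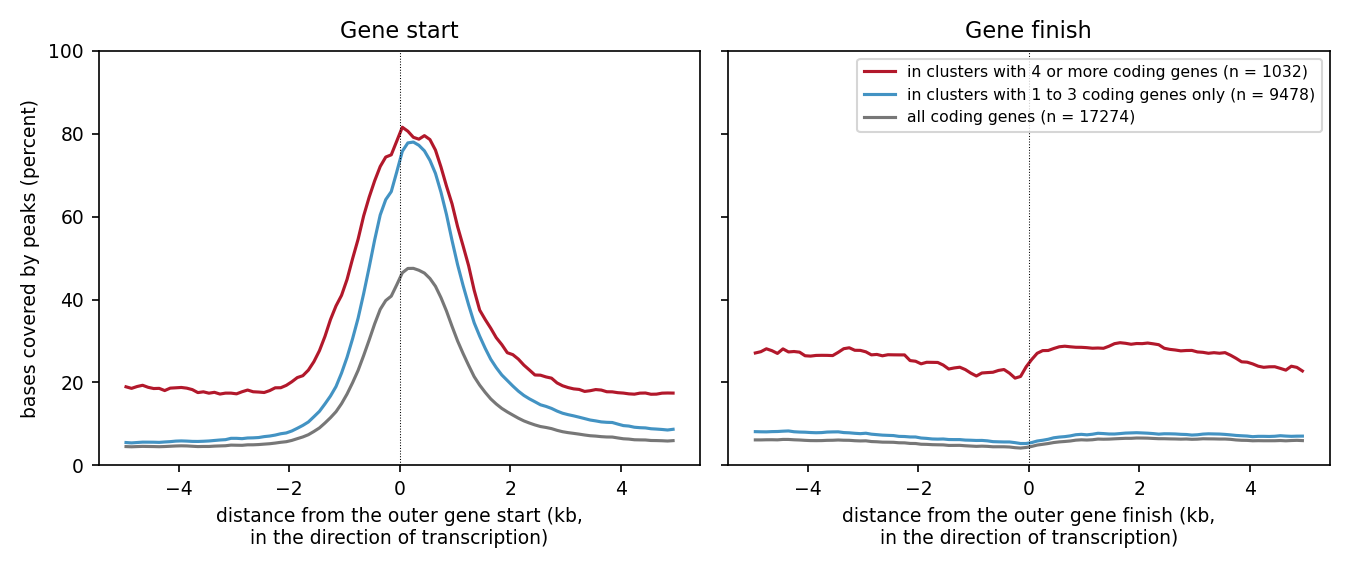
Percent of bases covered by peaks in 100 bp bins (vertical axis) against distance in kb from the outermost start (left) and finish (right), in the direction of transcription. Just past the start coverage is 81.6% in multigene clusters and 75.7% in clusters with 1 to 3 genes, and just past the finish it is 25.5% and 5.49%.

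Some single peaks reached several genes. Of the 2375 peaks 1270 (53.5%) touched a gene end, against 22.8% of all peaks, and 543 (22.9%) touched ends of 2 or more genes, against 4.13%. A touch can be at a start or a finish, and 128 peaks (5.39%) held starts of 2 or more genes, against 1.40% of all. The peaks that touched an end had a median width of 1559 bp, the rest 417 bp. At most 4 genes were touched by 1 peak. A peak of 12382 bp did so over Slc25a11, Rnf167, Pfn1 and Eno3 on chromosome 11, and held the starts of all 4. Pfn1 encodes the actin-binding protein profilin, and Eno3 encodes the enolase of muscle. A narrower peak of 3340 bp touched Eme2, Mrps34, Nme3 and Mapk8ip3 on chromosome 17.

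Many adjacent genes in the clusters were divergent pairs with close starts. Of 709 neighbouring pairs with both strands known 221 (31.2%) were divergent, against 24.3% of all 14828. Same-strand pairs were more common, 320 (45.1%), against 52.2% of all. Starts lay at most 1000 bp apart in 108 of the 221 (48.9%), against 22.1%, and 110 (49.8%) shared a peak over their starts, against 19.9%. Among close divergent pairs the share with a common peak was 88.0% here and 84.0% in all. The median gap between divergent neighbours was 191 bp here and 14774 bp over all pairs. Convergent neighbours were near as well, 194.5 bp apart at the median, and 3 of 168 shared a peak over their starts. The rule favours near genes joined by near peaks, so these contrasts in gap, start distance and shared peaks are partly fixed by it.

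A few genes inside the clusters carried no peak. There were 26 of them (2.03%) in 24 clusters, with a median length of 2558.5 bp, and the nearest peak was 1070 to 4027 bp away. Several are known from other tissues: Tbx6, a regulator of mesoderm; Pcp2, of cerebellar Purkinje cells; Ager, abundant in lung; Igfals and Apom, secreted by liver; and Ifitm5, of bone. Vpreb3 belongs to the B lineage. Ctsw, a cathepsin of cytotoxic lymphocytes, had its nearest peak at 3704 bp. Gfap, the intermediate filament of astrocytes, and Syp, a synaptic vesicle protein, had a peak in the gene but none at an end. Of the genes of other cell types that did have one, Eno2, the neuronal enolase, was covered over 9.18%, Cd68, a macrophage marker, over 38.9% and Cd14, a monocyte receptor, over 70.5%. Whether such peaks reflect other cells in the culture was not tested.

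The clusters lay in gene-dense sequence. Inside the spans there were 8.96 gene midpoints per 100 kb, in flanks of the same length on each side 4.80, and over the genome 0.832. Peaks covered 35.6% of the spans and 6.86% of the flanks. Both contrasts of span and flank are partly fixed by the rule. A span must overlap at least 4 genes and begins and ends in a peak, and the 12.5 kb beyond each edge holds no peak. Chromosome 11 had the most clusters, 37, followed by chromosome 7 with 30 and chromosome 17 with 27. By share of coding genes the order was chromosome 19 with 14.6%, 17 with 13.3% and 11 with 10.9%, and chromosome X was lowest with 0.828%.

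Small RNA genes were carried along. The spans overlapped 52 miRNA, 39 snoRNA and 32 tRNA genes and 115 long noncoding RNA genes. Of the hairpins in the spans, 48 from the miRNA table used here were counted, and 23 (47.9%) lay wholly under a peak, against 12.3% of all 1005 listed. A chromosome was left out of the 48 but kept in the 1005, so the 2 shares do not cover the same chromosomes. The wholly covered hairpins include Mir132 and Mir212 in the cluster from Smg6 to Dph1, and Mir191 and Mir425 in the cluster from Qrich1 to P4htm. Mir25, within Mcm7 in the cluster from Zfp113 to Ap4m1, was also wholly covered, while Mir93 and Mir106b in the same cluster had no covered base. The mature RefSeq sequences of 3 are shown with bases 2 to 8, the seed that pairs with targets, in capitals, since Mir132 and Mir212 lie under the same peak and share it, and Mir25 has another.
mmu-miR-132-3p: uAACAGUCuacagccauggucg
mmu-miR-212-3p: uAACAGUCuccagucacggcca
mmu-miR-25-3p: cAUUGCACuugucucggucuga
A peak over a hairpin shows acetylated chromatin at its gene and gives no level of the mature RNA.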

How the data were processed

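H3K27ac ChIP-seq libraries and their inputs were made from 2 biological replicates. The authors deposited 1 list of 56285 peaks, given as genomic positions with a name and no score. Reads were aligned to GRCm38 and peaks called against the input of each replicate, per the submitters' processing notes, which name MACS2 2.2.6, SAMtools 1.9, Bowtie2 2.3.4.1 and deepTools. The sources used here do not state thresholds, filters or pooling. The running number in the names reaches 71449, so 15164 numbers are absent. A small peak can be lost or split with depth, which is unknown, and stitching then joins fewer genes.

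Starts were counted from 0 in the list and are printed counted from 1. Peaks were stitched across gaps of up to 12.5 kb and crossed with RefSeq genes of GRCm38.p6. Each base was classed as gene end, gene body, other gene or between genes, in that order. Strand and starts came from the RefSeq promoter table, which listed 17274 of 21631 coding genes (79.9%). Motifs were searched on both strands. The planned analysis had no test, and none was run. The members and the 20 gene lists were chosen with earlier results of these data known. Clusters were named by gene number (10 highest), covered length (5 highest), gene-end share (5 highest, 5 lowest), share of span covered (3 at each extreme) and T cell list genes, and all other named clusters, pairs and genes were chosen after their values were seen. Alternatives were other stitching distances, gene-end windows, gene counting rules and a peak width minimum. The interval code was tested on simulated positions. Computation used pandas 2.3.3, numpy 2.4.6 and scipy 1.17.1 under Python 3.11.15, and plots matplotlib 3.10.9.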

Additional observations from a re-analysis of the deposited data

How the results depend on the processing

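The number of multigene clusters depends on the stitching distance and the gene rule. It was 258 as reported, 69 at 5000 bp, 490 at 20000 bp, 85 with genes wholly inside the span, 109 with 5 or more genes and 169 with overlapping gene models counted once. It stayed within 1.5 times with peaks of at least 500 bp (201) or genes overlapped by a peak (242). The share of covered length at gene ends, 45.86%, became 43.8% and 39.59% at 5000 and 20000 bp, 49.29% with peaks of at least 500 bp, 48.52% with genes wholly inside, 48.78% with 5 or more genes, and 35.83% with gene starts only, so most covered length lay more than 1000 bp from a listed start. It was 27.49% with a window of 500 bp and 67.95% with 2500 bp, which count less and more sequence by construction. The share of genes with a gene-end peak, 92.82%, was 91.06% and 90.19% at 5000 and 20000 bp, 94.6% for genes overlapped by a peak, 95.86% for genes wholly inside, 91% with 5 or more genes, 94.93% with models counted once, 89.93% and 96.33% with windows of 500 and 2500 bp, and 90.41% for starts only. Other causes of these moves were not tested. With 1 peak list there is no replicate error to judge the size of these moves by. No paired analysis was possible because the list has no value per replicate, and no replicate could be left out for the same reason.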
